A study of Mus musculus with 8 samples.

Results

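The miR-200 family was examined in the liver of mice on a diet that lacks methionine and choline (MCD) and of mice on a normal diet (control). Its members were the probes named for miR-200a, miR-200b and miR-429, which lie together on chromosome 4, and for miR-200c and miR-141, which lie together on chromosome 6, with either strand of the hairpin. The array held 10 such probes among its 1135 miRNA probes, a guide strand and a star strand for each of the 5 hairpins, listed on the array as mmu-miR-200a, mmu-miR-200b, mmu-miR-429, mmu-miR-200c and mmu-miR-141 with or without a final star. A star strand is the less abundant strand of the hairpin. All 10 passed the filter on dim spots, as did 1076 probes in all. Total liver RNA was measured on 8 one-colour arrays, 4 MCD and 4 control. The methods describe male C57BL/6N mice that were 8 weeks old at the start, and no genetic change or drug applied to either group used here. The labels give 23 weeks of diet, whereas the methods give a shorter feeding time. The MCD diet is a dietary model of steatohepatitis, and whole liver was extracted, so the RNA of all liver cells was pooled in each sample.

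MicroRNAs guide a silencing complex to messenger RNAs that pair with the seed, bases 2 to 8 of the guide strand. The miR-200 family marks epithelial cells. Its guides repress ZEB1 and ZEB2, transcription factors that switch off epithelial genes, and ZEB1 and ZEB2 in turn repress transcription of both miR-200 clusters. In normal liver the family is known mainly from bile duct epithelium rather than from hepatocytes. In whole tissue, a change in the number of cells of a type and a change in RNA per cell cannot be told apart.

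The mature sequences are shown because the probes that differed most between the diets detect guides that are almost identical in sequence to guides whose probes did not pass the test. All 10 probes were matched to RefSeq entries (build GRCm38.p6), and each strand is printed 5′ to 3′ with the seed in capitals. The guides miR-200b, miR-429 and miR-200c share the seed AAUACUG, and miR-200a and miR-141 share the seed AACACUG, so each seed class has members in both clusters.
miR-200b: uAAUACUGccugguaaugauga
miR-429: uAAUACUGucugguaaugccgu
miR-200c: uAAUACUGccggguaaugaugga
miR-200a: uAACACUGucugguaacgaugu
miR-141: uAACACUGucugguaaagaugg
miR-200b*: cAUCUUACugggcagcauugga
miR-200a*: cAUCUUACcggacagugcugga
Counted from 1 at the 5′ end, with the base of the first-named guide first, miR-200b and miR-200c differ at 2 of the 22 compared bases, U11G and A22G. The guides miR-200a and miR-141 also differ at 2, C17A and U22G, and miR-200b and miR-200a at 4, of which U4C lies in the seed. The star strands miR-200b* and miR-200a* share a seed of their own, AUCUUAC.

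The chromosome 4 cluster spans 1846 bases at chr4:156053905-156055750 on the minus strand, with miR-200b, miR-200a and miR-429 in the order of transcription and gaps of 695 and 908 bases between the hairpins. The guide sequences lie at chr4:156055685-156055706 for miR-200b, chr4:156054911-156054932 for miR-200a and chr4:156053916-156053937 for miR-429. The cluster overlaps the lncRNA gene Gm13648. The chromosome 6 cluster spans 477 bases at chr6:124717914-124718390, also on the minus strand. The guide sequences of this cluster lie at chr6:124718324-124718346 for miR-200c and chr6:124717917-124717938 for miR-141. There miR-200c precedes miR-141 with 336 bases between them, and the cluster lies between the protein-coding genes Phb2 and Ptpn6 without overlapping either.

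Over all tested probes, 62 were higher in MCD (5.76%) and 48 were lower (4.46%) by limma at an adjusted p under 0.05. The higher share of the calls was 56.4%, against 68.4% with global median scaling, 67.4% with 75th percentile scaling and 26.8% with spike control scaling, under which the median log2 change of all tested probes was -0.24, against -0.01 with quantile normalization. The hepatocyte miRNA miR-122 was among the brightest probes on every array. Arrays of the same diet correlated between 0.960 and 0.979, and arrays of different diets between 0.919 and 0.950. The MCD arrays were all at position 2 of their slide and the control arrays all at position 1, so position and diet cannot be told apart. The local background around the spots was 123 to 140 intensity units on MCD arrays and 144 to 158 on control arrays. The labels number the samples but do not say which mouse each came from, and the spread behind the p-values may therefore be technical.

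The chromosome 4 guides were higher in MCD. Of the 10 family probes, 3 passed limma upward, miR-200a, miR-200b and miR-429, 0 passed downward and 7 did not pass, where 5.76% of all tested probes passed upward and 10.2% in either direction. The median change was 0.30 over the 10 family probes on the log2 scale, against -0.01 over all tested probes. Every normalized MCD value exceeded every control value for miR-200a, miR-200b, miR-429 and miR-200b*, 4 of the 10, where 8.83% of all tested probes showed this. For miR-200b* the nearest values were 6.77 in MCD and 6.76 in control. Its spot intensities overlapped, at 238 to 281 in MCD and 237 to 273 in control. No family probe had all MCD values below all control values, which 6.23% of all tested probes had.

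The guide miR-200a, which shares its seed with miR-141, had spot intensities of 870, 884, 1461 and 523 on MCD arrays 1 to 4, against 290, 276, 305 and 290 on the control arrays. After normalization its log2 intensities were 9.15, 9.70, 10.16 and 8.75 in MCD and 7.0, 7.03, 7.32 and 7.06 in control. The groups did not overlap, and the MCD arrays differed among themselves far more than the control arrays did, whose signals lay close to background. The log2 change was 2.34 ± 0.24 (SE, limma adjusted p = 3.45e-05), or 5.06-fold.

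The guide miR-200b gave spot intensities of 737, 801, 1284 and 485 on MCD arrays 1 to 4, against 271, 281, 273 and 278 on the control arrays. Its log2 intensities were 9.02, 9.45, 9.84 and 8.62 in MCD and 6.92, 7.17, 7.09 and 7.07 in control. The order of the MCD arrays was the same as for miR-200a, and the groups did not overlap. The log2 change was 2.17 ± 0.21 (SE, limma adjusted p = 1.80e-05), or 4.50-fold.

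The guide miR-429, which carries the miR-200b seed, had spot intensities of 328, 367, 470 and 320 in MCD, against 249, 253, 260 and 227 in control. Its log2 intensities were 7.57, 7.85, 8.13 and 7.57 in MCD and 6.73, 6.91, 6.91 and 6.57 in control. The groups did not overlap, and MCD array 3 was again the highest. The log2 change was 1.00 ± 0.14 (SE, limma adjusted p = 0.000390). Only 1 control array exceeded background for this probe and the change ranged from 0.56 to 2.49 with the background correction.

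**Figure D1:**
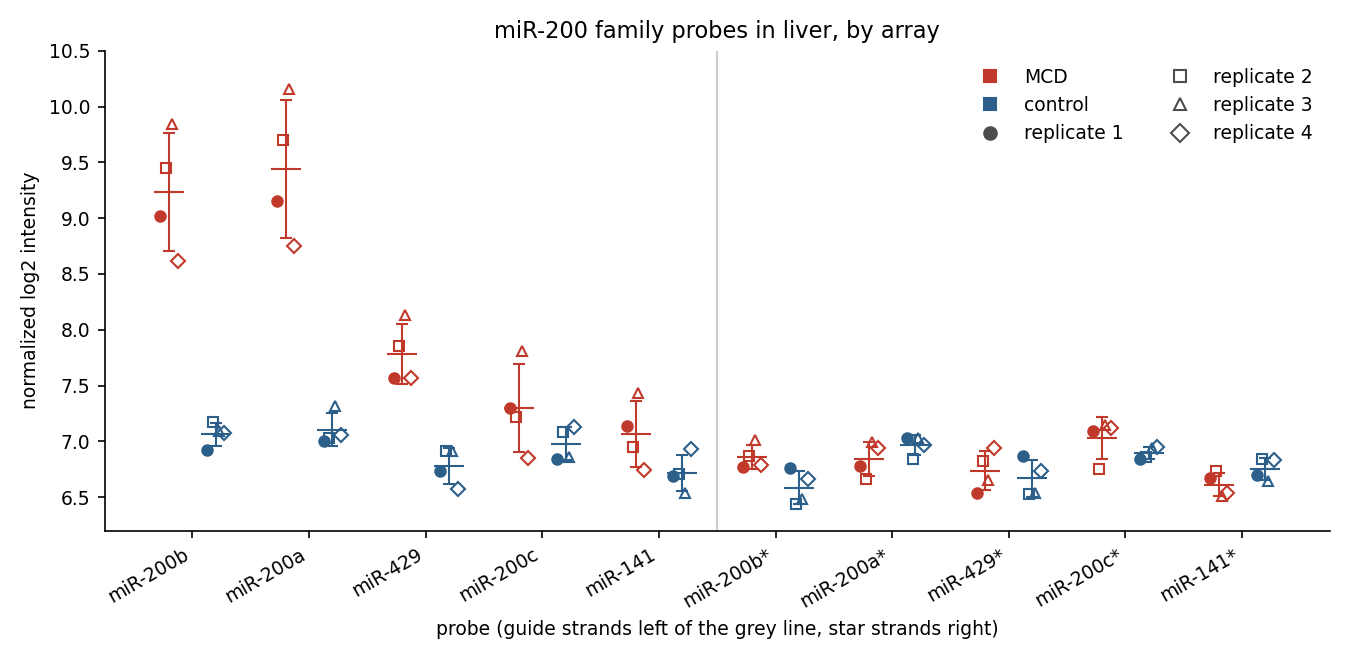
Normalized log2 intensity (vertical axis) of the 10 miR-200 family probes (horizontal axis) on the 4 MCD arrays (red, left of each pair) and the 4 control arrays (blue, right). Marker shapes give the replicate number and bars the mean and SD. The MCD points of miR-200b and miR-200a lie between 8.62 and 10.16, all above the control points of the same probes, whereas the star strands lie between 6.44 and 7.15 in both groups.

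Control signals of the family were close to background. A spot was counted as above background where it exceeded the mean of the 1818 blank spots of its array plus 2 SD. The 4 control arrays all passed this limit for miR-200a and miR-200b, 1 did for miR-429, 3 for miR-200c and 2 for miR-141. Against the stricter limit set by the 24 negative control spots, miR-200a was above on 3 of 4 control arrays, and miR-200b, miR-429, miR-200c and miR-141 were above on 0. In MCD, miR-200a, miR-200b and miR-429 passed the stricter limit on all 4 arrays, and miR-200c and miR-141 on 2 each. With the control signal set no lower than the weakest signal above the negative control limit on each array, the ratio of MCD to control was 4.44 for miR-200b and 1.66 for miR-429 under this normalization, and other processing gave smaller as well as larger changes. Normexp adds an offset of 50 units before the log, which pulls changes of dim probes towards 0. After subtraction of the blank mean instead, the log2 changes were 3.10 for miR-200a, 3.22 for miR-200b and 2.49 for miR-429, and without background correction they were 1.56, 1.44 and 0.56, all still past limma's threshold. Blank subtraction and no correction make no use of the local background.

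The chromosome 6 guides did not pass. The guide miR-200c had spot intensities of 280, 280, 382 and 246 on MCD arrays 1 to 4, against 253, 261, 248 and 271 on the control arrays. Its log2 intensities were 7.30, 7.22, 7.81 and 6.85 in MCD and 6.84, 7.08, 6.86 and 7.13 in control. MCD array 3 stood highest, and MCD array 4 lay among the control values. The log2 change was 0.32 ± 0.17 (SE, limma adjusted p = 0.318), with a 95% interval from -0.05 to 0.68. It was 0.14 without MCD array 3 and 0.47 without MCD array 4 (limma adjusted p = 0.631 and 0.0686). It was 0.13 with spike control scaling, 0.18 without background correction, 0.82 after blank subtraction and 0.87 on the authors' processed values (limma adjusted p = 0.0579 for the last).

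The guide miR-141 had spot intensities of 264, 261, 325 and 251 on MCD arrays 1 to 4, against 254, 246, 238 and 271 in control. Its log2 intensities were 7.14, 6.95, 7.43 and 6.74 in MCD and 6.69, 6.71, 6.54 and 6.93 in control. The groups overlapped through MCD array 4 and control array 4. The log2 change was 0.35 ± 0.14 (SE, limma adjusted p = 0.167), with a 95% interval from 0.04 to 0.66. It was 0.23 without MCD array 3 and 0.46 without MCD array 4 (limma adjusted p = 0.378 and 0.0528). It was 0.14 both with spike control scaling and without background correction, 0.84 after blank subtraction and 0.87 on the authors' processed values, where it passed limma's threshold (adjusted p = 0.0409). The missed threshold does not show that the chromosome 6 guides did not rise.

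**Figure D2:**
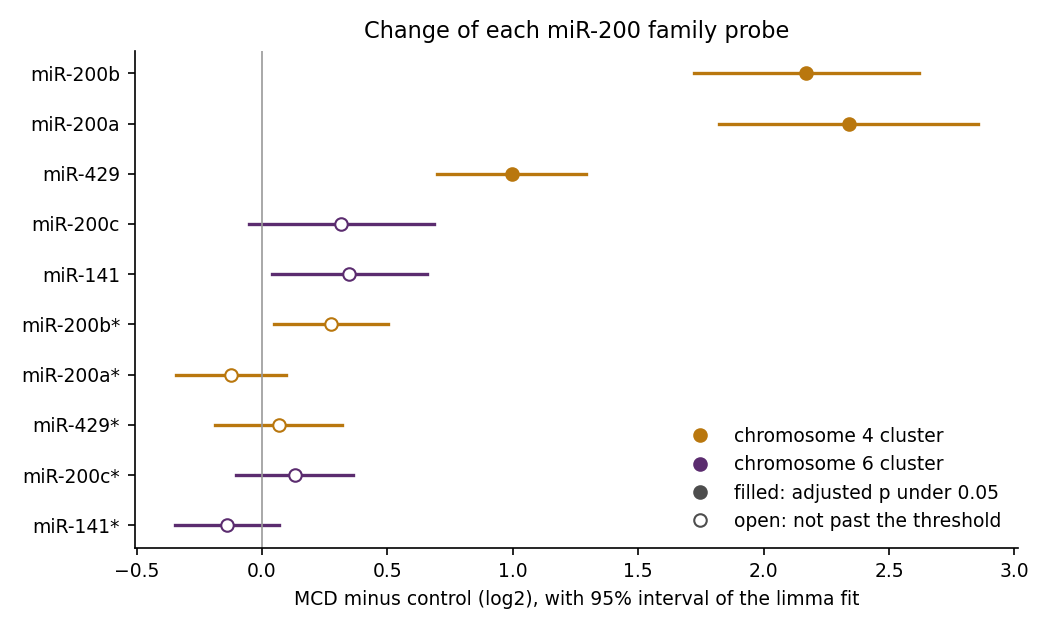
Change of each family probe between the diets, MCD minus control on the log2 scale (horizontal axis), with the 95% interval of the limma fit over 4 arrays per diet. Filled points passed an adjusted p under 0.05. The intervals of miR-200b and miR-200a begin at 1.72 and 1.82, and those of the 2 chromosome 6 guides end at 0.68 and 0.66.

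The clusters were contrasted at matched seed, by the difference of 2 probes on each array and an exact two-sided permutation test over the 4 MCD and 4 control arrays. In all, 12 contrasts were made between family probes, of which 9 reached the smallest p this design allows, 0.0286, or 0.0381 after Benjamini-Hochberg adjustment over the 12. Only the change of a difference between diets was read, since the levels of different probes are not comparable. The difference between miR-200b and miR-200c averaged 1.94 ± 0.24 in MCD and 0.08 ± 0.12 in control (SD, n = 4), so that miR-200b rose by 1.85 ± 0.13 (SE) log2 units more than miR-200c (exact permutation p = 0.0286). The difference between miR-200a and miR-141 averaged 2.37 ± 0.42 in MCD and 0.38 ± 0.28 in control, a gap in change of 1.99 ± 0.25 (exact permutation p = 0.0286). For miR-429 against miR-200c the gap in change was smaller, 0.68 ± 0.17 (exact permutation p = 0.0286). In each of these 3 contrasts the 4 MCD arrays lay above the 4 control arrays. The gaps kept their sign and their p under all other background corrections and scalings and without any 1 array, as far as both probes had values, at 1.26 to 2.40 for miR-200b against miR-200c, 1.42 to 2.27 for miR-200a against miR-141 and 0.37 to 1.68 for miR-429 against miR-200c under the other settings.

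Within the chromosome 4 cluster, the rises of miR-200a and miR-200b differed by 0.17 ± 0.09 (SE, exact permutation p = 0.114), whereas miR-200b had the greater change once the blank mean was subtracted and also in the authors' processed values. Both rose more than miR-429, by 1.34 ± 0.20 for miR-200a and 1.17 ± 0.16 for miR-200b (exact permutation p = 0.0286 each). These gaps shrank to 0.61 and 0.72 after blank subtraction, with exact permutation p = 0.257 and 0.171. The changes of miR-141 and miR-200c differed by 0.03 ± 0.08 (SE, exact permutation p = 0.714). In both seed classes, the probes of the chromosome 4 guides rose more than the probe of the chromosome 6 guide with the same seed. The probes of miR-200c and miR-141 exceeded the negative control limit on 0 control arrays and on 2 MCD arrays each. The gaps between the clusters therefore set a guide against a signal near background, and are a description of signals. Whether a probe also picks up a guide that differs at few bases from its own was not tested.

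**Figure D3:**
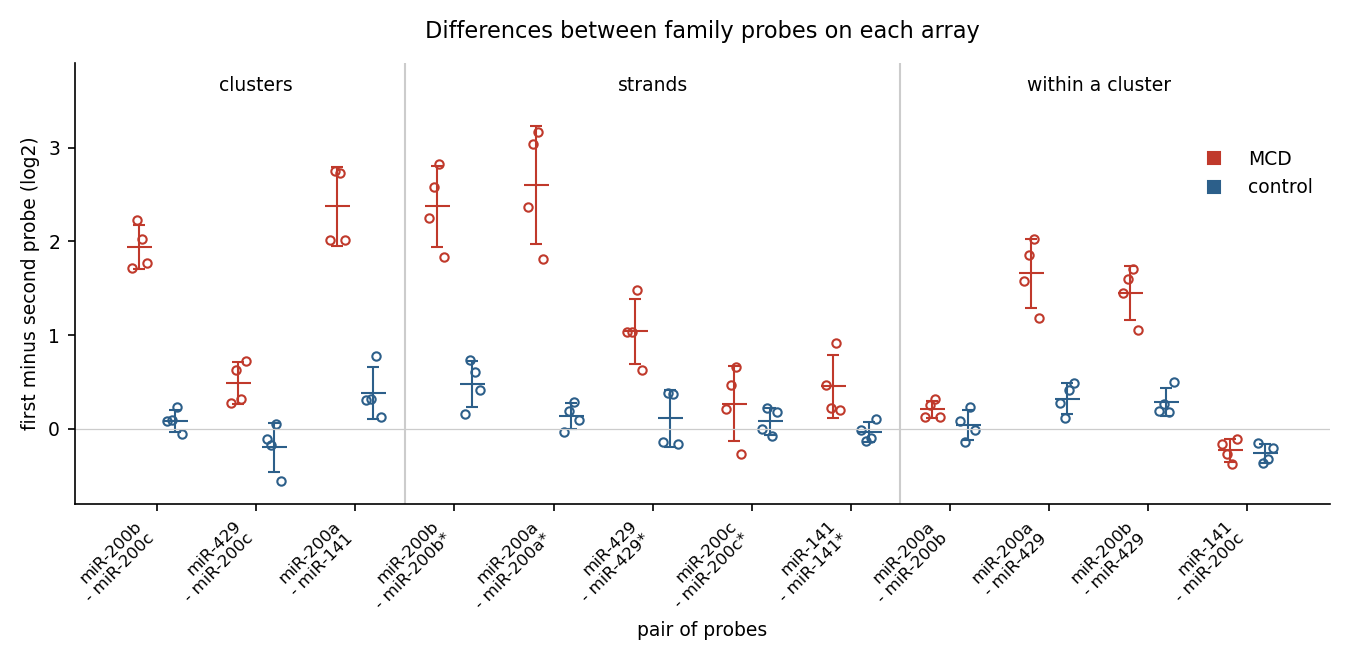
Difference between 2 family probes on each array (log2, vertical axis) for the 12 pairs (horizontal axis), in MCD (red, left) and control (blue, right), with mean and SD. In the 3 contrasts of the clusters the MCD points lie above every control point, whereas miR-141 minus miR-200c overlaps between the diets.

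None of the 5 star strands passed and 3 of the 5 guides did, where 10.2% of all tested probes passed in either direction. A count of 0 among 5 is near that share, so nothing is read from it about the star strands. The star strand miR-200b* had log2 intensities of 6.77, 6.87, 7.01 and 6.79 in MCD and 6.76, 6.44, 6.48 and 6.66 in control. The groups touched without overlapping on this scale, whereas its spot intensities overlapped, and the change was 0.27 ± 0.10 (SE, limma adjusted p = 0.141). The star strand miR-200a*, with log2 intensities of 6.78, 6.66, 6.99 and 6.94 in MCD and 7.03, 6.84, 7.03 and 6.97 in control, was at -0.12 ± 0.10 (limma adjusted p = 0.545). The changes of the remaining star strands were 0.07 for miR-429*, 0.13 for miR-200c* and -0.14 for miR-141*, with limma adjusted p from 0.464 to 0.80. No star probe exceeded the negative control limit on any array, so their level is not measured beyond background.

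In the chromosome 4 cluster the guide probe rose more than the star probe of the same hairpin. The gap in change was 2.46 ± 0.32 for miR-200a, 1.90 ± 0.25 for miR-200b and 0.93 ± 0.23 for miR-429 (SE, exact permutation p = 0.0286 each). It was 0.19 ± 0.22 for miR-200c (exact permutation p = 0.400) and 0.49 ± 0.17 for miR-141 (exact permutation p = 0.0286). The call of miR-141 ended without control array 1, 2, 3 or 4 (exact permutation p = 0.0857 each), and that of miR-429 without control array 1 or 4 (exact permutation p = 0.0571 each). Both also ended after blank subtraction (exact permutation p = 0.0571 each). Leaving out an array makes the groups unequal in size, and the p can then exceed its minimum although the groups do not overlap. The calls lost in that way do not show a dependence on a single array.

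To set these gaps beside those of other miRNAs, the strand difference was fitted with limma over all 357 hairpins with both strands tested. The strands of 56 hairpins (15.7%) differed in their change at an adjusted p under 0.05. The hairpins of miR-200a, miR-200b and miR-429 were among them (adjusted p = 2.11e-10, 6.03e-09 and 0.000412). The miR-141 and miR-200c hairpins did not (adjusted p = 0.0519 and 0.572). A call on the guide or brighter strand alone was found for 45 hairpins (12.6%), on the other strand alone for 16, and on both for 4. The median gap between the strands was 0.21 log2 units. Since the family's star probes were at background, their gaps set the change of a guide against a background signal and do not measure the change of the star strand.

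**Figure D4:**
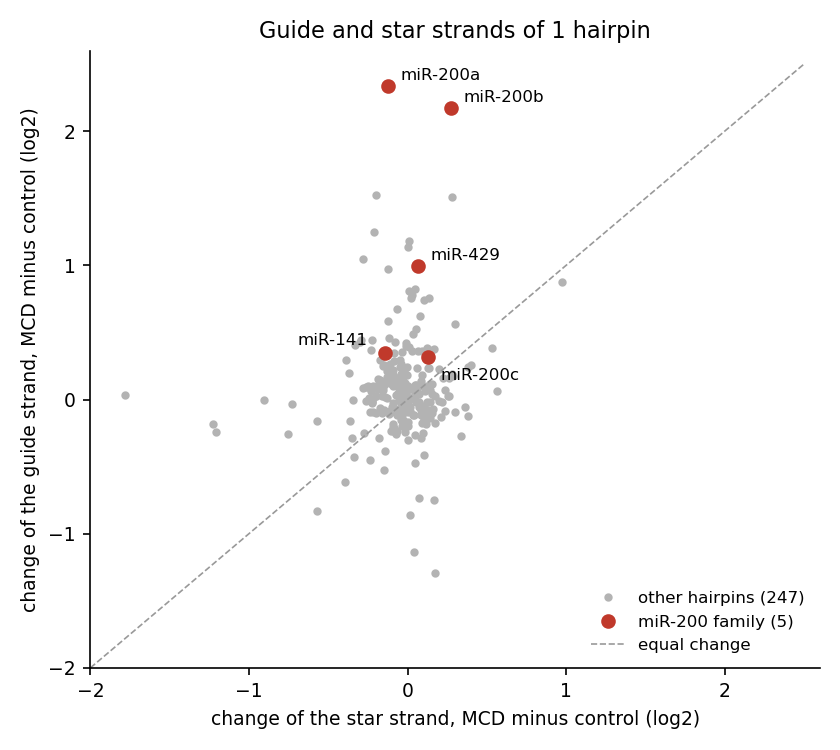
Change of the guide strand (vertical axis) against that of the star strand (horizontal axis) of the same hairpin, MCD minus control on the log2 scale, for the 5 family hairpins (red) and 247 other hairpins whose strands are named guide and star (grey). The dashed line marks equal change. The points of miR-200a and miR-200b stand highest, at guide changes of 2.34 and 2.17 with star changes of -0.12 and 0.27.

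The rise differed in size between the MCD arrays. The SD of miR-200a within MCD was 0.62, larger than that of 99.9% of the tested probes or equal to it, and that of miR-200b was 0.53, at 99.5%. Within control, the SDs were 0.15 and 0.11. Control signals lay close to background, where the offset added before the log also pulls spreads towards 0. The SDs therefore do not show that control livers varied less. MCD array 3 was the highest of the MCD arrays for all 5 guides, and MCD array 4 was the lowest for miR-200a, miR-200b, miR-200c and miR-141. For miR-429, MCD arrays 1 and 4 both stood at 7.57. MCD array 3 highest with MCD array 4 lowest was also the order of 28 of the 62 probes called higher (45.2%), of 11.0% of all tested probes, and of 0 of the 5 star strands. Without MCD array 3 the changes were 2.06 for miR-200a and 1.93 for miR-200b, and without MCD array 4 they were 2.61 and 2.42.

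Markers of other liver cells differed between the same arrays. The counts of the lists that follow stand beside 5.76% higher and 4.46% lower over all tested probes. The summed intensity above blank of the 5 miR-200 guides was 6.76, 6.96, 13.3 and 3.46 times the control mean on MCD arrays 1 to 4, whereas control arrays ranged from 0.881 to 1.14 times that mean. Most of the MCD sum came from miR-200a and miR-200b, with means of 723 and 615 units. The means of miR-429, miR-200c and miR-141 in MCD were 160, 85.6 and 63.9 units. In control the guides averaged 25.7 to 68.7 units each, so the ratio has a denominator near background. Mesenchymal miRNAs, which mark stellate cells and fibroblasts, had 6 of 7 probes higher and 0 lower, from miR-100 at 0.53 through miR-143, miR-145, miR-125b-5p and miR-199a-5p to miR-199a-3p at 1.35 on the log2 scale. Their summed intensity was 3431 to 7998 units in MCD and 1961 to 2704 units in control, and it too was highest on MCD array 3 and lowest on MCD array 4. The same MCD arrays were highest and lowest for the leukocyte list and for the epithelial list outside the family. Other lists had other orders. The hepatocyte and endothelial sums were highest on MCD array 1, and the endothelial sum was lowest on MCD array 2. The erythroid sum was highest on MCD array 4 and lowest on MCD array 1. These sums were not scaled between arrays. Of 7 leukocyte miRNAs, miR-223, miR-142-5p and miR-342-3p were higher and 0 were lower, with sums of 803 to 1692 units in MCD and 606 to 930 units in control. Of 6 hepatocyte miRNAs, miR-122, miR-192, miR-194, miR-148a and miR-101b were lower, by log2 changes of -0.53 to -1.13, and 0 were higher, with sums of 20087 to 26901 units in MCD and 40619 to 54078 units in control. In the endothelial pair miR-126-3p was higher and miR-126-5p did not pass, and of 3 erythroid probes 0 passed. The part of these other cells in the change of the miR-200 guides was not tested.

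**Figure D5:**
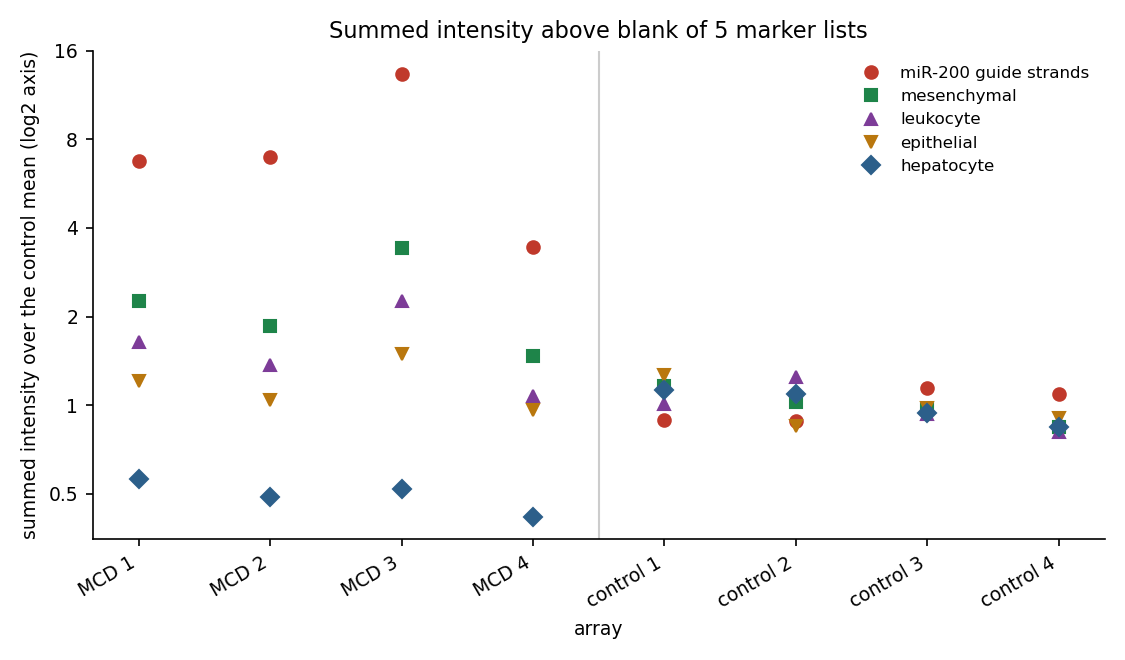
Summed spot intensity above the blank mean of 5 lists of miRNAs on each array (horizontal axis), as a ratio to the mean of the 4 control arrays (vertical axis, log2 scale). MCD arrays stand left of the grey line and control arrays right. The miR-200 guides reach 3.46 to 13.3 in MCD, the mesenchymal list 1.47 to 3.43, and the hepatocyte list stays between 0.417 and 0.559. The control mean of the miR-200 guides is a sum of signals near background.

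Of 7 epithelial probes outside the family, 0 passed upward and 1 passed downward, with a median change of 0.10, where 5.76% of all tested probes passed upward and 4.46% downward. A count of 0 among 7 is near that share, so nothing is read from it about the list. The skin and gland miRNA miR-203, which is repressed by ZEB1 in human cancer cells, had log2 intensities of 7.61 ± 0.23 in MCD and 8.36 ± 0.12 in control (SD, n = 4), a change of -0.75 ± 0.12 (SE, limma adjusted p = 0.00155). In the cluster of miR-183, miR-96 and miR-182, known from sensory epithelia, miR-182 was at 0.49 ± 0.15 (limma adjusted p = 0.0582), miR-96 at 0.36 ± 0.14 and miR-183 at -0.06 ± 0.15. The probes of miR-205, which represses ZEB1 and ZEB2 like the miR-200 guides, of miR-31 and of miR-375 changed by 0.08, 0.10 and 0.11 and did not pass. The summed intensity of the list was 660 to 1020 units in MCD and 582 to 866 units in control.

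Among 13 miRNAs linked to ZEB, Snail or TGF-β signalling, 1 was higher, 2 were lower and 10 did not pass, with a median change of 0.13. Over all tested probes 5.76% were higher and 4.46% lower, and 1 of 13 higher is near that share. The higher one was miR-34a, a p53 target that represses Snail in human cells, at 0.68 ± 0.09 (SE, limma adjusted p = 0.000325). Besides miR-203, the lower one was miR-192, an abundant liver miRNA, at -0.61 ± 0.17 (limma adjusted p = 0.0367). The fibrosis-related miR-21 was at 0.10 ± 0.12, and the collagen repressors miR-29a, miR-29b and miR-29c were at 0.36, 0.36 and -0.17, none past the threshold. The probes of miR-155, miR-215, miR-34b and miR-34c did not pass either.

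The pattern most like that of miR-200b over the 8 arrays was that of miR-200a. The root mean square difference between their log2 values, each centred on its control mean, was 0.16. The next probes were miR-376a at 0.48, miR-379 at 0.49, miR-199a-3p, whose probe also carries the name miR-199b, at 0.59 and miR-3096b-3p at 0.59. For miR-200a the same probes followed miR-200b, from miR-376a at 0.61 to miR-199a-3p at 0.72. These 4 probes rose by 1.35 to 1.91 log2 units. Large rises follow in part from the choice, since the measure includes the size of the rise. Both miR-376a and miR-379 belong to the imprinted Dlk1-Dio3 region, and a link with the miR-200 guides was not tested.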

How the data were processed

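Liver RNA was hybridised to a commercial mouse miRNA chip and read with the scanner of its maker. The files deposited by the authors hold spot and local background intensity, the median of the pixels, uncorrected and linear, and a table of processed intensity values from the authors, empty for dim spots and with a column median of 45, used as an alternative. Intensities of all spots underwent normexp correction (offset 50), log2 transformation and quantile normalization over 1135 miRNA probes with limma 3.58.1 in R 4.3.3. Probes above the blank mean plus 2 SD on at least 4 arrays were tested with lmFit and eBayes without a block, as the methods use an unpaired test, and adjusted over 1076 probes by the Benjamini-Hochberg method. The fit was tested on simulated data. Sequences and neighbouring genes came from RefSeq (GRCm38.p6). The number of arrays limits the precision. Probes carry the names of the array design, in which the star strands here are the 5p entries of RefSeq.

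Family members and the marker lists (epithelial, hepatocyte, mesenchymal, leukocyte, endothelial, erythroid and pathway) were chosen with earlier results of these data known, so that their counts are descriptions. The text names all family probes, list members past the threshold and the 5 probes most like each of the 2 family probes with the smallest p. Other members of the epithelial and pathway lists were named after their values were seen. Alternatives covered background correction, scaling, filters, the test, array weights, a replicate block and leaving out each array. The limma fit over strand differences and the ratio with control at the negative control limit were added after seeing the data. Slides are not named in the files used here, so a slide block was not run.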

Additional observations from a re-analysis of the deposited data

Results flagged for a closer look

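Of the 20 sets of 4 arrays tested for a value far from the others (10 probes in each diet), 1 was singled out, and chance alone marks about 1 set in 20. On the MCD arrays, miR-200c* stood at 7.09, 6.75, 7.15 and 7.12, and the gap between MCD array 2 and its nearest neighbour was 0.867 of the whole range, above Dixon's critical value for a set of this size.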

How the results depend on the processing

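The calls of miR-200a, miR-200b and miR-429 and their direction held in every alternative in which the probe was tested, with changes of 1.56 to 3.15, 1.44 to 3.23 and 0.56 to 2.49, and without any 1 array. The filter on all 8 arrays left out miR-429, and the authors' values lacked it on control array 4. The negative control filter kept miR-200b and miR-429 through their 4 MCD arrays, with 0 control arrays above the limit. The main filter was likewise met by the 4 MCD arrays of miR-429. Passing these filters therefore adds no support. Without any filter the same 3 family probes were called higher. With the replicate block, 67 probes were higher and 51 lower, with the same 3 family probes higher. Same-numbered arrays correlated in their deviations at -0.007 to 0.10. Arrays of different numbers were not set beside them, so these values do not settle whether the numbers pair samples. Counts over all probes were 33 higher and 19 lower after blank subtraction, 34 and 93 with spike control scaling, 34 and 24 for adjusted p-values of the methods' t-test, 30 lower with global median scaling and 31 lower with 75th percentile scaling. Leaving out 1 array gave 45 to 70 higher and 28 to 48 lower. The lower count was 30 without MCD array 3, 28 without control array 1, 31 without control array 3 and 28 without control array 4.

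The miR-141 change was 0.87 on the authors' values, now past the threshold. Spike control scaling turned miR-429* to -0.17 and miR-200c* to -0.11, and leaving out 1 array put miR-429* between -0.0014 and 0.13. For miR-141 minus miR-141*, the contrast was no longer past the threshold without background correction (0.18), with the blank mean subtracted (1.16), in the authors' table (1.17) and in limma over all hairpins (0.49), with 0.34 to 0.58 on leaving out 1 array. Blank subtraction ended the contrasts of miR-429 minus miR-429* (2.09, and 0.76 to 1.08 on leaving out 1 array), miR-200a minus miR-429 (0.61) and miR-200b minus miR-429 (0.72). The contrast of miR-200a minus miR-200b turned to -0.12 after blank subtraction and -0.088 in the authors' table, and lay between 0.11 and 0.23 on leaving out 1 array, past the threshold without control array 3. That of miR-141 minus miR-200c turned to -0.046 without background correction and lay between -0.014 and 0.088 on leaving out 1 array. The causes of these changes were not tested. The star probes were not above the negative control limit on any array, so that their levels are not measured.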

Other observations

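In the authors' table of processed intensities, miR-200b had 525.75, 573.70, 890.08 and 254.57 units on MCD arrays 1 to 4, against 45, 64.08, 53.32 and 56.78 units on the control arrays. The guide miR-200c had 75.54, 61.71, 143.50 and 28.95 units in MCD, against 27.44, 41.63, 30.21 and 49.91 units in control. The guide miR-141 had 59.78, 43.03, 96.32 and 33.67 units in MCD, against 28.41, 24.80, 20.97 and 49.91 units in control. MCD array 3 was the highest of all 8 arrays for each of these 3 guides, whereas MCD array 4 lay within the control range for miR-200c and miR-141. Of the 10 family probes, 5 had a processed value on every array, and 8 had one on every MCD array.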
